A study of Mus musculus with 6 samples.

Results

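The photoreceptor outer segment is a modified cilium filled with membrane discs, and 10 genes that build or hold it were followed in whole mouse retina with and without a working Unc119 gene. The genes, chosen by symbol, were the disc rim genes Prph2, Rom1 and Abca4, the axoneme genes Rp1 and Rp1l1, the disc morphogenesis genes Prom1 and Cdhr1, the trafficking genes Tulp1 and Reep6, and Impg1 of the matrix around the photoreceptors. All 10 were found by exact match among the 24346 gene symbols measured, and all 10 had a mean of at least 0.5 FPKM, the level above which a gene was tested. FPKM is a fragment count divided by transcript length and by a measure of library size. Levels of different genes can thus be set side by side per length.

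The tested retinas were Unc119-/- (called knockout, 3 libraries) and the controls were Unc119+/+ (called wild type, 3 libraries). Every library was made from retinal RNA with a stranded mRNA kit. The sources used here give no strain, age, allele design or number of retinas per library. They leave it unsaid whether the numbered libraries of a genotype came from separate mice, so a p-value reflects how far these libraries spread, which may be technical in part.

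Outer segments are renewed throughout life. New discs form as membrane outgrowths at the base of the segment, are closed by a hairpin rim, stack along a microtubule axoneme, and are shed at the tip to the pigment epithelium. Loss of any of several of these proteins in people or mice causes degeneration of rods, cones or both. UNC119 binds lipid-modified proteins and helps carry them within photoreceptors, and the study asked what changes in the retina when it is missing.

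The libraries held rod RNA at similar levels. The 12 rod marker genes summed to 29494 to 31248 FPKM in knockout libraries and to 29006 to 31698 FPKM in wild-type libraries, and none of them was at 0 in either genotype. Unc119 itself averaged 473 ± 32.8 FPKM in the knockout and 1195 ± 10.1 FPKM in wild type (SD, n = 3 each), a log2 change of −1.34 (limma adjusted p = 6.6e-05), so transcript of the locus was still counted in the knockout libraries. RNA of the lens was uneven. Its 14 markers summed to 270, 666 and 11258 FPKM in knockout replicates 1, 2 and 3, and to 142, 785 and 0.704 FPKM in wild-type replicates 1, 2 and 3. Markers of microglia, the resident immune cells of the retina, differed in summed level without overlap. The 8 markers summed to 38.1 to 41.7 FPKM in knockout libraries and to 19.9 to 25.8 FPKM in wild-type libraries, with none at 0 in every library. All 8 had a positive log2 change, with a median of 0.40, and in 5 all knockout libraries were above all wild-type libraries, against 7.83% of all genes tested. Limma called 0 of them after adjustment, and 4 at an unadjusted p under 0.05, all higher, against 5.19% of all genes tested. By Xist and the Y-linked genes, knockout replicate 1 and wild-type replicates 1 and 2 were male and the other libraries female.

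None of the 10 genes passed the test between genotypes. Limma with Benjamini-Hochberg adjustment over 14176 genes called 0 of the 10 members at an adjusted p under 0.05, against a background of 0.233% of all genes tested (33 genes, with 0.205% higher and 0.0282% lower). At an unadjusted p under 0.05, limma gave 1 member higher (Tulp1) and 1 lower (Rp1), against 5.19% higher and 3.81% lower among all genes tested (9% together). The same members were those whose genotypes did not overlap, 2 of 10, against a background of 15.9%. These shares lie near the background, and nothing about the 10 genes is read from them. On the log2(FPKM + 1) scale 5 members had a positive and 5 a negative change, and with quantile normalization 2 and 8. Scaled to the rod markers, 6 were positive and 4 negative. Their median was −0.00069, against −0.0017 over all genes tested. The member changes ran from −0.13 for Rp1 to 0.15 for Tulp1.

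**Figure D1:**
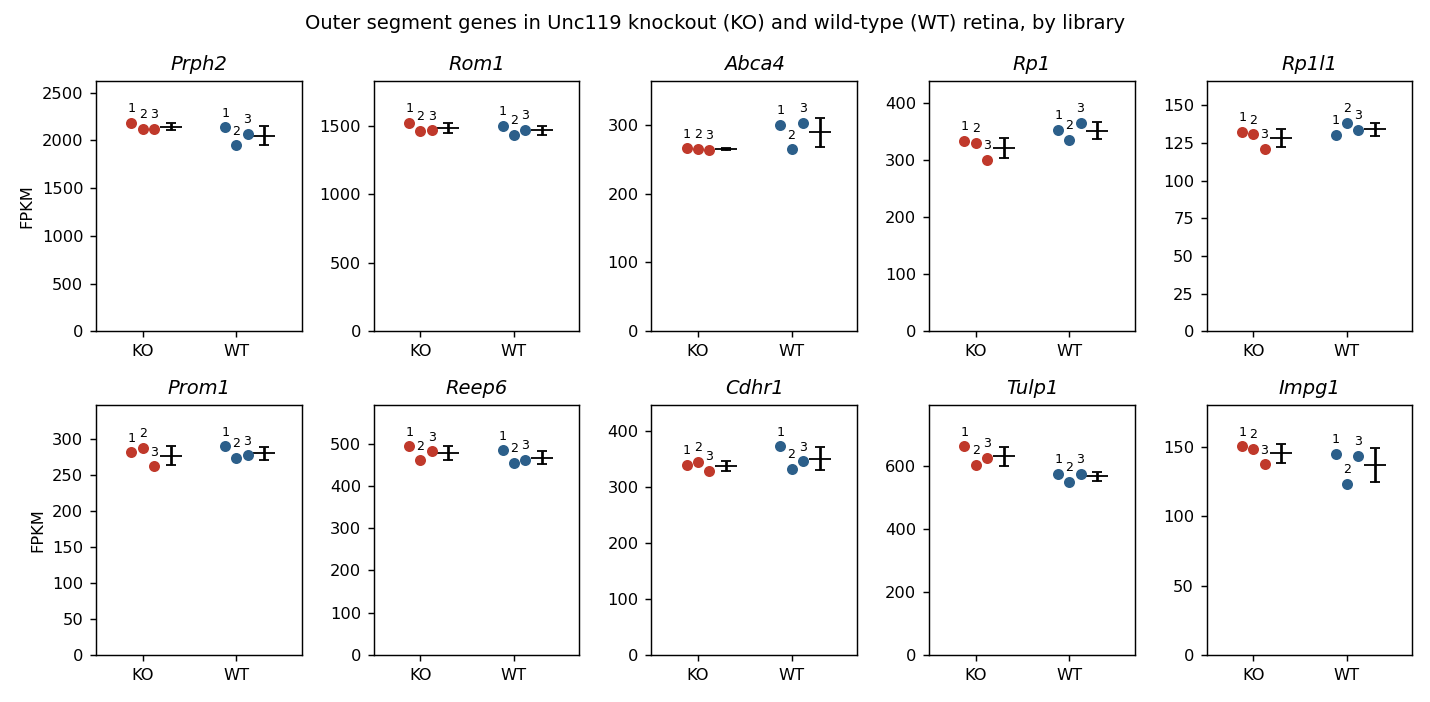
FPKM (vertical axes, from 0) of each of the 10 genes in the 3 knockout (KO, left) and 3 wild-type (WT, right) libraries. Points are libraries with their replicate number, and the bar with caps is the mean ± SD. Tulp1 is above wild type in all 3 knockout libraries and Rp1 below it, and the genotypes overlap for the other 8 genes.

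The rim tetraspanin genes Prph2 and Rom1 were the most abundant of the group. Prph2 encodes peripherin 2, the tetraspanin that bends the membrane of the disc rim, and without which discs do not form in mice. It measured 2186, 2123 and 2124 FPKM in knockout replicates 1, 2 and 3, against 2137, 1948 and 2069 FPKM in wild-type replicates 1, 2 and 3. Only knockout replicate 1 stood above every wild-type library, and the genotypes overlapped. By mean FPKM over the 6 libraries, Prph2 ranked 5 among all genes. Its log2 change was 0.06 with a 95% interval of −0.06 to 0.19 (limma adjusted p = 0.734), and it was 0.028 without wild-type replicate 2, the lowest library.

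Rom1 encodes a related tetraspanin that assembles with peripherin 2 in the rim. It measured 1523, 1463 and 1468 FPKM in knockout replicates 1, 2 and 3, against 1501, 1434 and 1470 FPKM in wild-type replicates 1, 2 and 3. The genotypes overlapped, and the gene ranked 9 among all genes. Its log2 change was the smallest in size of the 10, at 0.02 with a 95% interval of −0.09 to 0.12 (limma adjusted p = 0.936), which bounds the change between −6.08% and 8.86% of FPKM + 1. It turned to −0.0027 without knockout replicate 1 and to −0.00092 without wild-type replicate 2, and was at most 0.032, without wild-type replicate 1.

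The ratio of the rim partners within a library does not depend on how libraries were scaled. Prph2 stood at 1.43, 1.45 and 1.45 times the FPKM of Rom1 in knockout replicates 1, 2 and 3, against 1.42, 1.36 and 1.41 times in wild-type replicates 1, 2 and 3. All 3 knockout ratios were above all 3 wild-type ratios, by a margin that was small beside the spread of the wild-type libraries. The difference was 0.05 in log2 units. A two-sided exact permutation test gave p = 0.1, the smallest that 3 libraries against 3 allow, and 0.3 after adjustment over the 3 ratios examined. Without wild-type replicate 2 the difference was 0.03.

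Abca4 encodes a transporter in the disc rim that clears retinal from the disc membrane. It measured 266, 265 and 263 FPKM in knockout replicates 1, 2 and 3, against 300.2, 264 and 303 FPKM in wild-type replicates 1, 2 and 3. The knockout libraries agreed within 0.563% (SD as a share of the mean), the tightest of the 10 genes, and lay at the level of wild-type replicate 2 while the other wild-type libraries were higher. The log2 change was −0.12 with a 95% interval of −0.26 to 0.01 (limma adjusted p = 0.575). It was −0.19 without wild-type replicate 2 (limma adjusted p = 0.353), and −0.06 when the lens level was a term in the fit.

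These genes lie on separate chromosomes of the mm10 mouse genome. In the GENCODE M21 annotation, protein-coding Prph2 (ENSMUSG00000023978.5) spans 46910459 to 46924933 on the plus strand of chromosome 17 and Rom1 (ENSMUSG00000071648.4) 8927391 to 8929356 on the minus strand of chromosome 19, each with up to 3 exons. Abca4 (ENSMUSG00000028125.14) spans 122044443 to 122180123 on the plus strand of chromosome 3 with up to 50 exons. The 250 bases before the RefSeq start of the 3 rim genes and of Tulp1 are shown 5′ to 3′ on the strand of the gene (RefSeq, GRCm38.p6, the same build as mm10), as the proximal promoters of the rim genes and of the member with the largest difference. Capitals mark the letters TAATCC or its reverse complement GGATTA, the core bound by the photoreceptor homeodomain factor CRX, or TGCTGA or its reverse complement TCAGCA, part of the element bound by the rod factor NRL.
Prph2, chr17:46910228-46910477, plus strand: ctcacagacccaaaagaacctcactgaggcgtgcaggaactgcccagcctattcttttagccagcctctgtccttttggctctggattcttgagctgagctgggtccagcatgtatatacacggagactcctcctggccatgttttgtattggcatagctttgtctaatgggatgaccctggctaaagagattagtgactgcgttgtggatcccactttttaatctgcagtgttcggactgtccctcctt
Rom1, chr19:8929357-8929606, minus strand: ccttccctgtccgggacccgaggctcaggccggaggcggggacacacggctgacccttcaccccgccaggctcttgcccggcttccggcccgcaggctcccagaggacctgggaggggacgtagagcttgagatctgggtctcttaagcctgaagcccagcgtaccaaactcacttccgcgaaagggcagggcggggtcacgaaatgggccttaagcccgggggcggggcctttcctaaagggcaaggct
Abca4, chr3:122044210-122044459, plus strand: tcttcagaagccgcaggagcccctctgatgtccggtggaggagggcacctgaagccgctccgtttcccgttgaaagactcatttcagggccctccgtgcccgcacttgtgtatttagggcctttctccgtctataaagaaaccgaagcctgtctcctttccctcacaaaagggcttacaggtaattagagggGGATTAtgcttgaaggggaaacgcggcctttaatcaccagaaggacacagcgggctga
Tulp1, chr17:28365217-28365466, minus strand: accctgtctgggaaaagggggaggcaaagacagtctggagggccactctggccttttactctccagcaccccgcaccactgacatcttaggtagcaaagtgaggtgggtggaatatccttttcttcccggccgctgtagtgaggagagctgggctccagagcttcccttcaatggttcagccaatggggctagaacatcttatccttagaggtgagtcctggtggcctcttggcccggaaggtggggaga
RefSeq promoter entries were at hand for 7 of the 10 genes (8 entries, as Prom1 has 2), and Rp1, Rp1l1 and Reep6 had none. TAATCC on either strand was in 1 of the 8 entries, that of Abca4, against 6.25% of 32851 promoter windows of the same length. TGCTGA on either strand was in 0 of the 8, against 16.1%. As TGCTGA was in none of these windows, an overlap of the 2 motifs could not arise. A window without these letters says nothing about whether either factor binds there.

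The axoneme genes had slightly lower means in the knockout, and neither passed the test. RP1 is a doublecortin-family protein that binds the axoneme microtubules and keeps discs aligned. Rp1 measured 334, 330.0 and 301 FPKM in knockout replicates 1, 2 and 3, against 354, 336 and 366 FPKM in wild-type replicates 1, 2 and 3. All knockout libraries were below all wild-type libraries, though knockout replicate 1 and wild-type replicate 2 were close. Of all genes tested 8.04% had genotypes that did not overlap in this direction. The knockout mean was 91.4% of the wild-type mean, with a log2 change of −0.13 (95% interval −0.26 to −0.0019, limma unadjusted p = 0.0474, adjusted p = 0.551).

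The size of the Rp1 difference rested in part on knockout replicate 3, which had its lowest value and by far the most lens RNA. Without that library the log2 change was −0.08 (limma adjusted p = 0.765), and with a lens term in the fit it was −0.05 (limma adjusted p = 0.983). Within the libraries read as male it was −0.05 and within those read as female −0.215, each with a single library on 1 side. How far lens RNA or sex set this difference was not tested beyond these values. Rp1 (ENSMUSG00000025900.12) spans 3999557 to 4409241 on the minus strand of chromosome 1.

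Rp1l1, which encodes a paralog of RP1 in the same axoneme, measured 132, 131 and 121 FPKM in knockout replicates 1, 2 and 3, against 130.1, 138 and 134 FPKM in wild-type replicates 1, 2 and 3. The genotypes overlapped, and knockout replicate 3 was again the lowest library. The log2 change was −0.07 with a 95% interval of −0.18 to 0.05 (limma adjusted p = 0.707). It was −0.027 without knockout replicate 3 and −0.043 without wild-type replicate 2. The gene (ENSMUSG00000046049.7) lies on the plus strand of chromosome 14 at 63992506 to 64035025. Rp1 stood at 2.52, 2.53 and 2.49 times the FPKM of Rp1l1 in knockout replicates 1, 2 and 3, against 2.72, 2.43 and 2.74 times in wild-type replicates 1, 2 and 3. The ratios overlapped (two-sided exact permutation p = 0.4, and 0.4 adjusted over the 3 ratios).

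**Figure D2:**
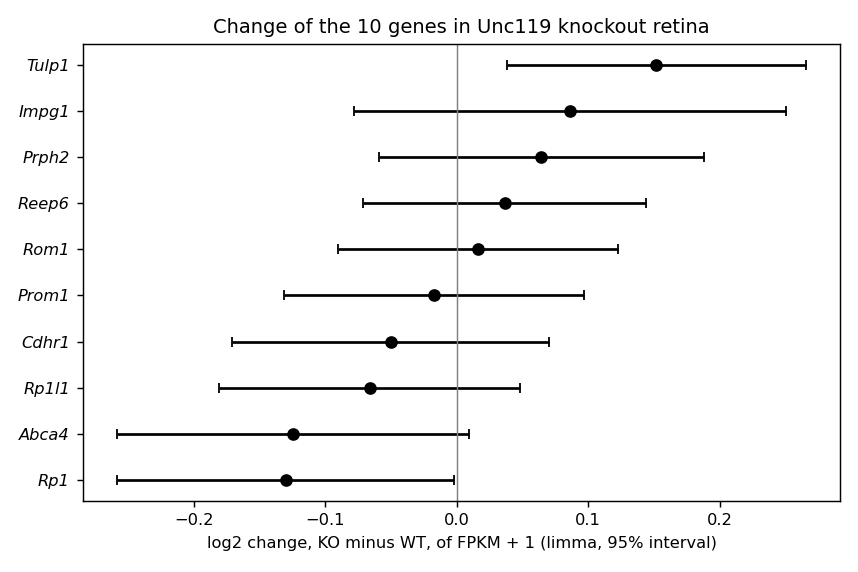
Log2 change of FPKM + 1, knockout minus wild type (horizontal axis), of the 10 genes, with 95% intervals from limma. The interval lies above 0 for Tulp1 and below 0 for Rp1, unadjusted for the number of genes tested, and the other 8 include 0.

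Genes of disc formation did not differ beyond the spread. Prom1 encodes prominin 1, a membrane glycoprotein of the open discs at the segment base. It measured 282, 287 and 262 FPKM in knockout replicates 1, 2 and 3, against 290, 274 and 277 FPKM in wild-type replicates 1, 2 and 3. Wild-type values lay inside the range of the knockout values but for replicate 1. The log2 change was −0.02 with a 95% interval of −0.13 to 0.10 (limma adjusted p = 0.935). It turned to 0.022 without knockout replicate 3 and to 0.0072 without wild-type replicate 1, and was −0.044 without knockout replicate 2.

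Cdhr1, also named photoreceptor cadherin, encodes a protocadherin at the leading edge of new discs that binds prominin 1. It measured 340, 345 and 329 FPKM in knockout replicates 1, 2 and 3, against 373, 332 and 346 FPKM in wild-type replicates 1, 2 and 3. The spread of the wild-type libraries was wider than the gap between the genotypes. The log2 change was −0.05 with a 95% interval of −0.17 to 0.07 (limma adjusted p = 0.789). It was −0.0048 without wild-type replicate 1, the highest library, −0.030 without knockout replicate 3, and −0.088 without wild-type replicate 2. Prom1 (ENSMUSG00000029086.15) spans 43993620 to 44102032 on the minus strand of chromosome 5, where 424 exonic bases are shared with Gm16401 on the opposite strand. Gm16401 is not among the symbols measured and it is not stated whether counting used strand, so reads of that gene could be held in the value of Prom1. Cdhr1 (ENSMUSG00000021803.10) spans 37077857 to 37098347 on the minus strand of chromosome 14.

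Of the trafficking genes, Tulp1 showed the largest difference of the 10. TULP1, a tubby-like protein of the inner segment and connecting cilium, is needed to deliver proteins to the outer segment. Tulp1 measured 663, 605 and 626 FPKM in knockout replicates 1, 2 and 3, against 577, 550.1 and 576 FPKM in wild-type replicates 1, 2 and 3. Every knockout library was above every wild-type library, as for 7.83% of all genes tested. The knockout averaged 631 ± 29.5 FPKM and wild type 568 ± 15.2 FPKM (SD, n = 3 each), so the knockout mean was 111% of the wild-type mean.

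The log2 change of Tulp1 was 0.15 with a standard error of 0.05 and a 95% interval of 0.04 to 0.27 (limma unadjusted p = 0.0154, adjusted p = 0.454), and 478 of the 14176 genes tested had a p as small or smaller. By two-sided exact permutation p was 0.1, which 3 libraries against 3 cannot go below. The difference kept its sign in all 16 other settings and passed the adjusted threshold in none. Most of these settings could not turn the sign. The filters, the median-of-ratios scaling and the replicate block left the change at 0.15. As the genotypes did not overlap, leaving out a library or weighting the libraries could not turn it either. Of the settings that could, quantile normalization gave 0.07, rod-marker scaling 0.17, the sex term 0.16 and the lens term 0.19. It was 0.23 within the libraries read as male and 0.09 within those read as female. Tulp1 (ENSMUSG00000037446.14) spans 28351515 to 28365222 on the minus strand of chromosome 17, with up to 15 exons.

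Reep6 encodes an endoplasmic reticulum protein of rods that takes part in moving guanylate cyclases toward the outer segment. It measured 494, 461 and 482 FPKM in knockout replicates 1, 2 and 3, against 484, 455 and 461 FPKM in wild-type replicates 1, 2 and 3. The genotypes overlapped, with knockout replicate 1 the only library above all wild-type values. The log2 change was 0.04 with a 95% interval of −0.07 to 0.14 (limma adjusted p = 0.833). It ran from 0.014 without knockout replicate 1 and 0.019 without wild-type replicate 2 to 0.063 without wild-type replicate 1 and 0.064 without knockout replicate 2. The gene (ENSMUSG00000035504.16) lies on the plus strand of chromosome 10 at 80329953 to 80336441.

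In the interphotoreceptor matrix, Impg1 and Impg2 encode related proteoglycans that bind hyaluronan around the outer segments. Impg1 measured 151, 149 and 138 FPKM in knockout replicates 1, 2 and 3, against 145, 123 and 144 FPKM in wild-type replicates 1, 2 and 3. Knockout replicates 1 and 2 were above all wild-type libraries and knockout replicate 3 was not. The wild-type spread, 8.86% of the mean, was the widest of the 10 genes. The log2 change was 0.09 with a 95% interval of −0.08 to 0.25 (limma adjusted p = 0.731), and it was 0.01 without wild-type replicate 2.

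Impg2, which is not among the 10, measured 83.2, 82.9 and 75.6 FPKM in knockout replicates 1, 2 and 3, against 83.2, 72.2 and 78.3 FPKM in wild-type replicates 1, 2 and 3. Within each genotype its libraries fell in the same order as those of Impg1. Impg1 stood at 1.81, 1.79 and 1.82 times the FPKM of Impg2 in knockout replicates 1, 2 and 3, against 1.75, 1.71 and 1.83 times in wild-type replicates 1, 2 and 3. These ratios overlapped (two-sided exact permutation p = 0.4, and 0.4 adjusted over the 3 ratios). Impg1 (ENSMUSG00000032343.15) spans 80313330 to 80465481 on the minus strand of chromosome 9.

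**Figure D3:**
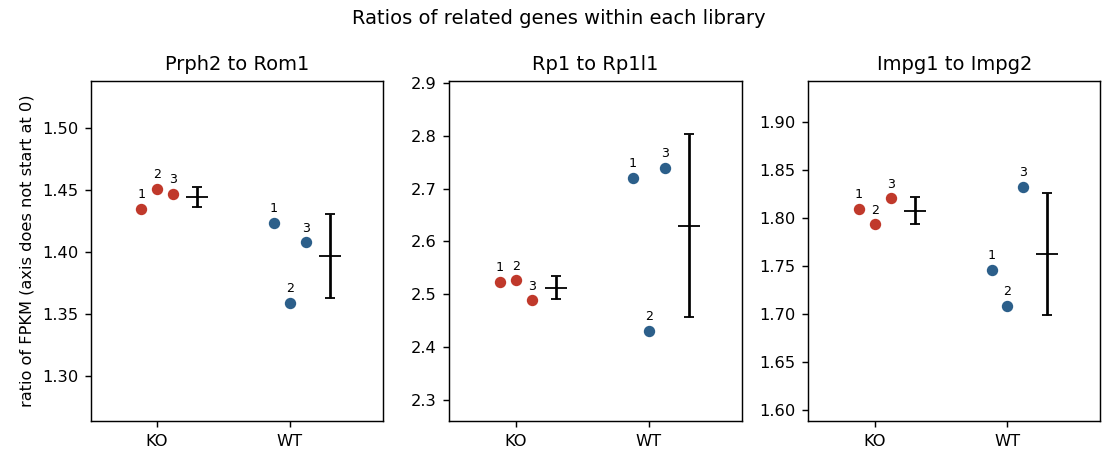
Ratio of FPKM within each library (vertical axes, not starting at 0) for Prph2 to Rom1, Rp1 to Rp1l1 and Impg1 to Impg2, in knockout (KO, left) and wild-type (WT, right) libraries, with replicate numbers and mean ± SD. The Prph2 to Rom1 ratios of the genotypes do not overlap, at 1.43 to 1.45 in the knockout and 1.36 to 1.42 in wild type, and the other ratios overlap.

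The order of the levels, per length, was nearly the same in each genotype. Prph2, Rom1, Tulp1 and Reep6 followed in that order in the knockout and in wild type, each above the next in all 3 libraries. Cdhr1 (338 ± 8.34 FPKM) came before Rp1 (322 ± 17.9 FPKM) in the knockout, and Rp1 (352 ± 15.0 FPKM) before Cdhr1 (350.3 ± 20.6 FPKM) in wild type (SD, n = 3 each), with ranges that overlapped in both genotypes. Prom1 and Abca4 came next and overlapped in both genotypes. Impg1 and Rp1l1 were the lowest, apart in the knockout at 146 ± 7.04 and 128 ± 6.09 FPKM, and overlapping in wild type at 137 ± 12.2 and 134 ± 4.18 FPKM (SD, n = 3 each). Within a library, Cdhr1 was above Rp1 in all 3 knockout libraries although the ranges overlapped. For the other overlapping neighbours the order of the means held in 2 of 3 libraries. No test was made of these orders. Together the 10 genes held 1.64%, 1.59% and 1.52% of the summed FPKM in knockout replicates 1, 2 and 3, against 1.61%, 1.52% and 1.60% in wild-type replicates 1, 2 and 3.

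The level of the group varied more from library to library than between the genotypes. Relative to the wild-type mean of each gene, the median of the 10 stood at 0.03, −0.01 and −0.05 log2 units in knockout replicates 1, 2 and 3, against 0.05, −0.06 and 0.01 in wild-type replicates 1, 2 and 3. The mean of the 12 rod markers stood at 0.02, −0.01 and −0.07 in knockout replicates 1, 2 and 3, against 0.07, −0.07 and −0.01 in wild-type replicates 1, 2 and 3. In each genotype the library with the lowest rod markers was also lowest for the 10 genes. In retina as a whole, fewer rods and less RNA per rod cannot be told apart.

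Some libraries were low for most members at once. Knockout replicate 3 was the lowest knockout library for 6 of the 10 genes, and knockout replicate 1 the highest for 8. Wild-type replicate 2 was the lowest wild-type library for 9 of the 10, all but Rp1l1, and wild-type replicate 1 the highest for 7. Knockout replicate 3 held the most lens RNA of the knockout libraries, at 11258 FPKM of lens markers. Wild-type replicate 2 held the most of the wild-type libraries, at 785 FPKM against 142 and 0.704 FPKM in wild-type replicates 1 and 3. Knockout replicate 2 held 666 FPKM. The part of lens RNA in these low values was not tested. Markers of pigment epithelium, whose cells also express some outer segment genes at low level, summed to 27.1, 92.8 and 107 FPKM in knockout replicates 1, 2 and 3, against 36.0, 57.0 and 59.0 FPKM in wild-type replicates 1, 2 and 3. Of these 11 markers, Best1 was listed at 0 in every knockout library. Their part in the values of the 10 genes was not tested.

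**Figure D4:**
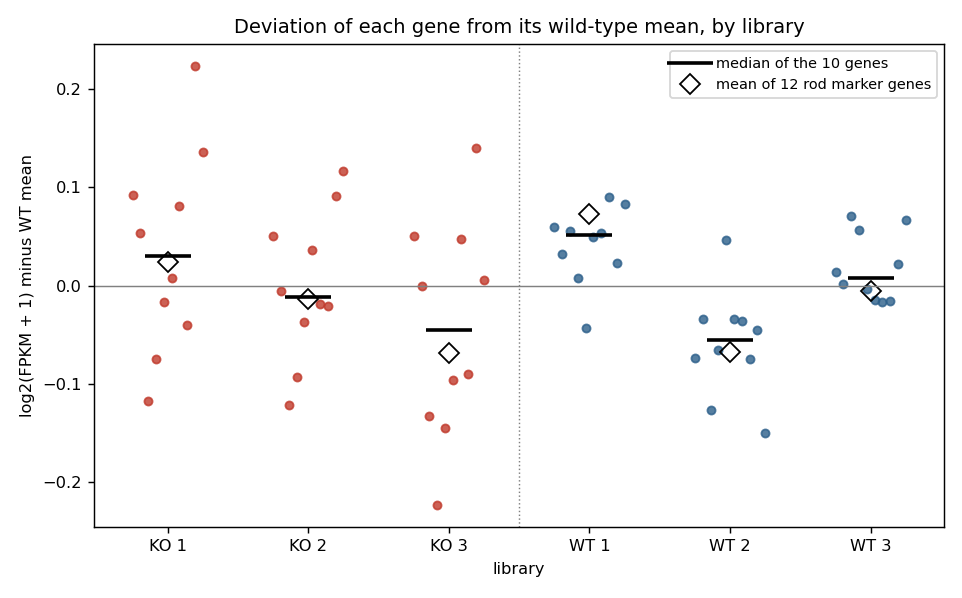
Log2(FPKM + 1) of each of the 10 genes minus its wild-type mean (vertical axis) in each library (KO, knockout, left, and WT, wild type, right). Points are genes, the bar is their median and the diamond the mean of 12 rod marker genes. The medians run from −0.05 to 0.03 in knockout libraries and from −0.06 to 0.05 in wild-type libraries.

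Over the 6 libraries, the genes with a mean of at least 10 FPKM whose log2(FPKM + 1) ran most like that of Prph2 were Cdc16, a subunit of the anaphase-promoting complex (Pearson r = 0.97, Spearman 0.94), Ap4b1, an adaptor protein complex subunit (r = 0.97, Spearman 0.83), and Ube2w, a ubiquitin-conjugating enzyme (r = 0.96, Spearman 1). These were the top of 7529 genes compared over 6 libraries, and no test was made of them. Among the members, Impg1 was closest to Prph2 (r = 0.90, 34th of those genes), followed by Rom1 (r = 0.86), Tulp1 (r = 0.82) and Reep6 (r = 0.80). The other members ran less like Prph2. Their r was 0.34 for Cdhr1, 0.30 for Prom1, 0.06 for the rim gene Abca4, −0.16 for Rp1 and −0.57 for Rp1l1. The values share their libraries and scaling, and include the difference between genotypes.

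Lists of other outer segment genes gave no call either. In 4 lists for disc membrane partners, axoneme and connecting cilium, matrix and adhesion, and relatives of the members, limma called 0 genes after adjustment over all genes, against 0.233% of all genes tested.

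Of the 12 disc membrane partners tested, which share the disc or its surrounding membrane with the rim genes, 10 had a negative change and the median was −0.08, against −0.0017 over all genes tested. The median was −0.03 with a lens term in the fit. All knockout libraries were below all wild-type libraries for 6 of the 12, namely Cngb1, Atp8a2, Gucy2e, Gucy2f, Rdh12 and Mreg, against 8.04% of all genes tested, and above for 0. At an unadjusted p under 0.05 limma gave 4 lower and 0 higher, against 3.81% lower and 5.19% higher among all genes tested. A negative median was not particular to this list. Markers of amacrine, horizontal and ganglion cells had a median of −0.13, Mueller glia −0.08, bipolar cells −0.06, cones −0.06 and rods −0.03. The 10 cone markers were mixed, with 3 positive and 7 negative. Limma called 1 of them higher (adjusted p = 0.0012) and 0 lower, against 0.205% and 0.0282% of all genes tested. They summed to 1127 to 1172 FPKM in knockout libraries and to 1052 to 1124 FPKM in wild-type libraries, without overlap. Medians were positive for pigment epithelium (0.21) and lens (2.73). The microglia markers, 8 of 8 positive, moved with genotype in the other direction. The part of these cell types in this list was not tested. Slc24a1, the rod sodium-calcium-potassium exchanger, measured 355 ± 9.83 FPKM in the knockout and 370.0 ± 20.9 FPKM in wild type (SD, n = 3 each, limma adjusted p = 0.755). The largest change was in Gucy2f, a retinal guanylate cyclase, with 51.5, 49.8 and 50.4 FPKM in knockout replicates 1, 2 and 3, against 62.4, 54.0 and 66.2 FPKM in wild-type replicates 1, 2 and 3 (log2 change −0.26, limma adjusted p = 0.389).

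For the axoneme and connecting cilium, 8 of the 17 genes tested were positive and 9 negative, with a median of −0.05 that turned to 0.01 with a lens term. The median was −0.012 without wild-type replicate 3 and −0.090 without knockout replicate 2. Limma gave 3 higher and 2 lower at an unadjusted p under 0.05, against 5.19% higher and 3.81% lower among all genes tested. Genotypes did not overlap for 3 genes higher and 1 lower, against 7.83% and 8.04%. Fam161a, a ciliary microtubule protein named after its values were seen, had the lowest adjusted p of these lists at 0.158 by limma. It measured 112, 102 and 100.2 FPKM in knockout replicates 1, 2 and 3, against 125, 127 and 133 FPKM in wild-type replicates 1, 2 and 3 (log2 change −0.29). Arl3, a small GTPase that releases cargo from UNC119, measured 211 ± 9.25 FPKM in the knockout and 204 ± 12.9 FPKM in wild type (SD, n = 3 each, limma adjusted p = 0.820). BC027072, the next most abundant, measured 148 ± 25.8 and 145 ± 16.4 FPKM in knockout and wild type. The symbol 1810043G02Rik, which RefSeq lists as Cfap410, had the largest positive change of the list at 0.32 (limma adjusted p = 0.458), with 25.2 ± 0.984 FPKM in the knockout and 20.1 ± 3.08 FPKM in wild type (SD, n = 3 each).

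Among matrix and adhesion genes, 14 of the 16 measured were tested, with 6 positive, 8 negative and a median of −0.02. These signs were not stable. Scaled to the rod markers or with the lens term, 8 were positive and 6 negative. Without wild-type replicate 2, 4 were positive and 10 negative with a median of −0.042. The median turned to 0.057 without wild-type replicate 1 and to 0.024 without wild-type replicate 3, each with 8 positive and 6 negative. It was −0.027 without knockout replicate 2, and −0.0030 and −0.0085 without knockout replicates 1 and 3. Rbp3, the retinoid carrier of the interphotoreceptor matrix, measured 992 ± 22.5 FPKM in the knockout and 943 ± 48.8 FPKM in wild type (SD, n = 3 each, limma adjusted p = 0.695). The largest change was that of the proteoglycan gene Vcan, and it came from 1 library. Vcan measured 0.29, 0.50 and 4.70 FPKM in knockout replicates 1, 2 and 3, against 0.63, 0.27 and 0.38 FPKM in wild-type replicates 1, 2 and 3, so that it was high only in the library with the most lens RNA (limma adjusted p = 0.720).

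Of 22 relatives of the members measured, 17 were tested, with 8 positive, 9 negative and a median of −0.02. These signs were not stable either. The rod-marker scaling made this 10 positive and 7 negative, as did leaving out knockout replicate 2 (median 0.022). Without knockout replicate 3, 4 were positive and 13 negative (median −0.041), and with the sex or the lens term 6 and 11. Leaving out knockout replicate 1 gave a median of −0.00038, and leaving out wild-type replicates 1, 2 and 3 in turn gave −0.026, −0.0038 and −0.012. Tub, the founder of the tubby family to which Tulp1 belongs, measured 84.5 ± 2.54 FPKM in the knockout and 87.1 ± 4.58 FPKM in wild type (SD, n = 3 each, limma adjusted p = 0.828). Abca1, a cholesterol transporter of the family of Abca4, had the largest change, with 6.52, 6.26 and 6.11 FPKM in knockout replicates 1, 2 and 3, against 7.98, 8.43 and 8.47 FPKM in wild-type replicates 1, 2 and 3. Its genotypes did not overlap, and the log2 change was −0.35 (limma adjusted p = 0.223).

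**Figure D5:**
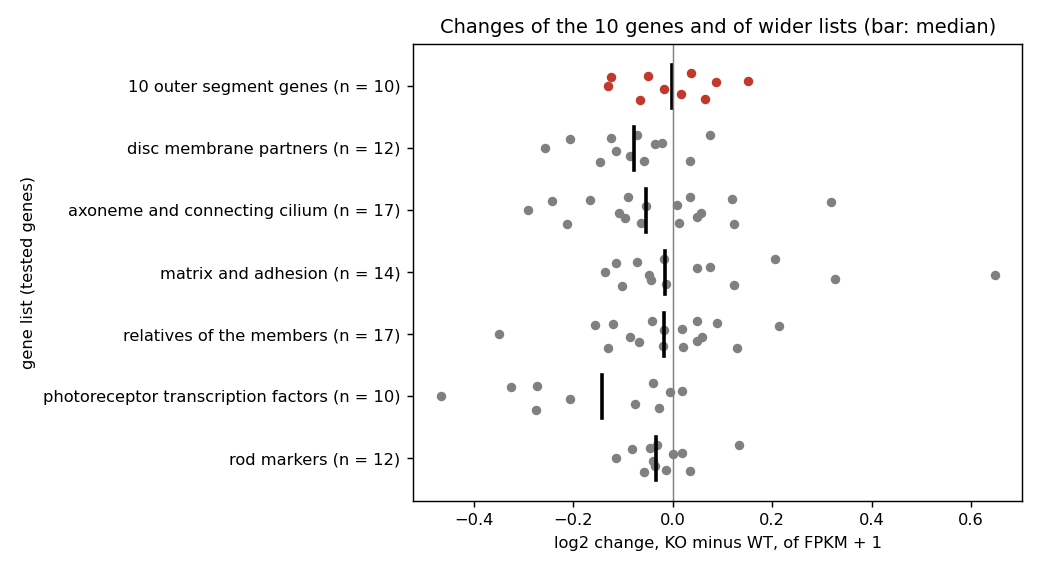
Log2 change of FPKM + 1, knockout minus wild type (horizontal axis), of each tested gene (points) in the 10 outer segment genes (red), 5 further lists and the rod markers (grey), with the median of each list as a bar. The 10 genes lie between −0.13 and 0.15 with a median of −0.00069, and no gene shown passed the adjusted threshold.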

How the data were processed

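TopHat2 2.1.1 and Cuffdiff 2.2.1 on mm10 are named in the submitters' processing notes. No source used here states the annotation, strand setting or scaling between libraries. By median of ratios the values were already level, with factors of 1.001 to 1.002, so that scaling changed almost nothing. Per the file headers, the authors deposited FPKM per gene symbol, in a table for each library. FPKM holds no fragment count, so depth is unknown. From the steps of low values (FPKM up to 0.3) relative depth was 0.944, 0.927 and 0.963 in knockout replicates 1, 2 and 3 and 0.762, 1 and 0.810 in wild-type replicates 1, 2 and 3, which touches genes of low level most.

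The 14176 genes averaging 0.5 FPKM or more were compared on log2(FPKM + 1), using limma (version 3.58.1, R 4.3.3) with a trended prior, two-sided, Benjamini-Hochberg adjusted over all of them, at 0.05. Changes on this scale understate those of low genes. The code was tested on simulated data. Ratios were compared by exact permutation (Python 3.11.15, scipy 1.17.1). Alternatives were pseudocount 0.1, other filters, quantile, median-of-ratios and rod-marker scaling, library weights, replicate block, sex and lens terms, and leaving out each library. Named genes were the 10 members, Unc119, Impg2, and of each further list any called gene, the 2 most abundant and the 1 with the largest change at a mean FPKM of at least 1, and the 3 genes most like Prph2. Of these, 2 are not reported here. Others were chosen after their values were seen. Members and lists were chosen with earlier results of these data known. GENCODE M21 and RefSeq GRCm38.p6 gave positions and promoters. Of the listed symbols, those with no exact match were not used.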

Additional observations from a re-analysis of the deposited data

How the results depend on the processing

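In all 16 alternative settings the number of the 10 members called by limma stayed at 0, and so did the number called in the further lists. The median change of the members ran from −0.02 to 0.02 when single libraries were left out. It moved beyond the spread between libraries (SD 0.05 log2 units) in quantile normalization alone, to −0.067, where the changes of Prph2 (−0.12), Rom1 (−0.17) and Reep6 (−0.031) turned negative; the cause was not tested. Prom1 was positive when scaled to rod markers (0.0019) and with the lens term (0.024), and ran from −0.044 to 0.022 without single libraries, as Rom1 did from −0.0027 to 0.032. Abca4, Rp1, Rp1l1, Cdhr1, Tulp1 and Impg1 kept their sign in every setting, as did the 3 ratios in theirs. Much of this was fixed in advance. The other pseudocounts, the filters, the median-of-ratios scaling and the replicate block left these changes and ratios nearly or exactly as they were. Genotypes did not overlap for Rp1, Tulp1 and the Prph2 to Rom1 ratio, so leaving out a library could not turn their sign. The number of genes called among all tested was 33, and 19 when scaled to rod markers, 15 with the replicate block, 19 with the sex term, 7 with the lens term, and 12 to 18 without single libraries. The last 4 kinds of fit have fewer residual degrees of freedom. No pairing by replicate number was seen. Deviations of same-numbered libraries correlated at 0.07, −0.09 and −0.12 over genes, against −0.08 to 0.17 for libraries of other numbers. These values depend on each other, and whether libraries were handled in numbered pairs is not known. With the replicate block (exact permutation within numbers, which cannot go below 0.25) the Prph2 to Rom1 ratio had p = 0.25. With 3 libraries a genotype, the 95% intervals of the members leave room for changes of up to about 20.2% upward (Tulp1) and 16.4% downward (Rp1).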

Other observations

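Transcription factors that drive photoreceptor genes were looked at beside the outer segment genes. Of the 10 factors, all tested, 9 had a negative and 1 a positive change, with a median log2 change of −0.14 against −0.0017 over all genes tested, and limma called 0 of them after adjustment over all genes. At an unadjusted p under 0.05, limma gave 3 lower and 0 higher, against 3.81% lower and 5.19% higher among all genes tested. The median was −0.095 without wild-type replicate 3, and 7 were negative and 3 positive without knockout replicate 3. The 8 markers of amacrine, horizontal and ganglion cells had a median of −0.13, with 3 lower and 1 higher at an unadjusted limma p under 0.05. Medians of Mueller glia, bipolar, cone and rod markers were also negative, and those of pigment epithelium and lens positive. Cone markers were mixed, with 3 positive and 7 negative, and limma called 1 of them higher (adjusted p = 0.0012) and 0 lower. Nrl is among both the rod markers and the factors. The microglia markers, 8 of 8 positive, moved with genotype in the other direction. The part of these cell types in this list was not tested. The factors best known for outer segment genes lay near wild type. Nrl, the rod determinant, measured 749 ± 40.3 FPKM in the knockout and 739 ± 33.5 FPKM in wild type, and Crx, the homeodomain factor of rods and cones, 395 ± 16.7 FPKM in the knockout and 402 ± 5.24 FPKM in wild type (SD, n = 3 each, limma adjusted p = 0.938 and 0.874).

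The largest change was in Rorb, a nuclear receptor needed for rod development, with 23.5, 23.7 and 25.9 FPKM in knockout replicates 1, 2 and 3, against 34.4, 28.6 and 40.0 FPKM in wild-type replicates 1, 2 and 3. All knockout libraries were below all wild-type libraries for Rorb, Samd7 and Samd11, 3 of 10, against 8.04% of all genes tested. The log2 change of Rorb was −0.47 with a 95% interval of −0.72 to −0.21 (limma adjusted p = 0.284).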
